A study of Mus musculus with 28 samples.

Results

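Genes that identify T and NK cells and the genes with which these cells kill were followed in tumors grown from 3LL, a cell line of mouse Lewis lung carcinoma. The set was given as 10 symbols: Cd3e, Cd4, Cd8a, Ncr1, Klrk1, Klrb1c, Nkg7, Gzma, Gzmb and Prf1. All rows carrying 1 of these symbols were taken from the deposited table, and 9 of the 10 genes had a row, out of 43143 rows in all and 18509 with a symbol. Each of the 9 had a single row with a gene identifier. Nkg7 had no row and was not analysed here. In the GENCODE vM21 annotation Cd4, Cd8a, Klrk1 and Klrb1c lie on chromosome 6, Ncr1 on 7, Cd3e on 9, Prf1 on 10, Gzma on 13 and Gzmb on 14.

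The tumors formed 4 groups of 4. In Experiment A, unedited (WT) 3LL cells were placed under the skin of the left flank and KEAP1-KO 3LL cells in the right flank of the same 6-week-old male albino C57BL/6 mice. Mice of Experiment B received KEAP1-KO cells on the left and DKO cells on the right, in which Nrf2 had been edited in addition to Keap1. Tumors were taken at day 10. The KEAP1-KO line and the DKO line were each grown from a single colony after CRISPR-Cas9 editing, so a line and its edit cannot be told apart, and within an experiment genotype and flank cannot be told apart either. KEAP1 is the adaptor that marks the transcription factor NRF2 for degradation, and its loss leaves NRF2 active. Cultured WT, KEAP1-KO and DKO cells, with 4 libraries each, hold no host cells and served as background. The extraction protocol in the labels names livers, and the tumors and cells named in the titles and in the study's methods were taken as the source.

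CD3 epsilon, encoded by Cd3e, is part of the signalling complex of every T cell receptor. CD4 and CD8 are the coreceptors of helper and cytotoxic T cells. NK cells lack a T cell receptor and read their targets through receptors such as NKp46 (Ncr1), NKG2D (Klrk1) and NK1.1 (Klrb1c). Both cytotoxic T cells and NK cells carry granules with perforin (Prf1), which opens the membrane of the target, and granzymes (Gzma, Gzmb), the proteases that enter through it. Several of these genes are also used elsewhere: activated CD8 T cells carry NKG2D, CD4 is found on some myeloid cells, and mast cells and other leukocytes can carry granzyme B.

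All values are log2(normalized count + 4), so a row without any read sits at exactly 2, called the floor here. Undoing this transform gave whole reads, between 4222377 and 6048381 per tumor and between 5808967 and 7524280 per cell library, and a single read of a gene corresponded to a value between 2.27 and 2.37. Distances from the floor are given on this log2 scale and understate the fold of low genes. The members are low genes: the highest library of the series held 56 reads of a member. In bulk tumor RNA, fewer cells of a type and less RNA per cell cannot be told apart. The edited gene and an NRF2 target followed the labels. Keap1 lay between 8.78 and 8.98 in WT tumors and between 7.13 and 7.86 in the KEAP1-KO and DKO tumors, and Nqo1 lay between 11.9 and 12.5 in KEAP1-KO tumors against 5.25 to 7.06 in WT and DKO tumors. The Nfe2l2 (Nrf2) row is a processed transcript and did not separate DKO (5.59 ± 0.09) from the KEAP1-KO tumors beside them (5.59 ± 0.14, SD, n = 4). No source used here says that tumors with the same replicate number came from the same mouse, and p-values measure the spread between these tumors.

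Promoters of 4 members with lower means in both groups of KEAP1-KO tumors than in WT and DKO tumors are shown first, as the 250 bases before the start of each gene in the RefSeq annotation of GRCm38.p6, read 5′ to 3′ on the gene's strand. Capitals mark exact matches, on either strand, to GTGTGA, the core of the element bound by the T-box factors T-bet and Eomes, and to TGTGGT, a site of the RUNX factors; both families are known for their part in the cytotoxic program.
Gzmb, chr14:56262335-56262584, minus strand: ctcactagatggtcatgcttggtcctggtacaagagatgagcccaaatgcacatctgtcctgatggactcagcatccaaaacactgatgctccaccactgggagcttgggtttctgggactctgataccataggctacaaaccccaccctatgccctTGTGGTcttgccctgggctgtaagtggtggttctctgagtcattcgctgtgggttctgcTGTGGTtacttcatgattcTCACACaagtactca
Prf1, chr10:61297586-61297835, plus strand: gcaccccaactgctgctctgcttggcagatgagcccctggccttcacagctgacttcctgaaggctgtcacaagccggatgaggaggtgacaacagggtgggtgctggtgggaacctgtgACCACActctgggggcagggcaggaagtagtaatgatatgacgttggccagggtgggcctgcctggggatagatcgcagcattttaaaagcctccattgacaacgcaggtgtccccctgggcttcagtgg
Klrk1, chr6:129623865-129624114, minus strand: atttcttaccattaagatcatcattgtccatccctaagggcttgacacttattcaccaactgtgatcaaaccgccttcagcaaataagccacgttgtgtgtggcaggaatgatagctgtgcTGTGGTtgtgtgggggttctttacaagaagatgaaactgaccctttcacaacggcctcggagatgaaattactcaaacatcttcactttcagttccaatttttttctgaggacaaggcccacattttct
Gzma, chr13:113100982-113101231, minus strand: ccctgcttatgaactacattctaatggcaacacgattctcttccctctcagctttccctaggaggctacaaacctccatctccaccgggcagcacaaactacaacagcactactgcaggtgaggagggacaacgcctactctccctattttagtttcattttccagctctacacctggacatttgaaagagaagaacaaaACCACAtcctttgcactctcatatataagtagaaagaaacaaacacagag
Windows were found for 9 of the 10 members, and Cd4 had no entry. The letters TGTGGT or their reverse complement were in the window of 7 of these 9 members, namely Ncr1, Klrk1, Klrb1c, Nkg7, Gzma, Gzmb and Prf1, and in 14.0% of 32851 windows of the same length. GTGTGA or its reverse complement was in the windows of Ncr1, Nkg7 and Gzmb and in 12.3% of all windows. These 3 members held both motifs, as did 2.05% of all windows. In Gzmb the T-box letters ended 10 bases before the start and the nearer RUNX letters 29 bases before it. The windows of Cd3e and Cd8a held neither. A match of letters is a description and says nothing of binding in these tumors.

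Cultured cells held almost no reads of the members other than Cd8a. Over 8 members and 12 cell libraries, 94 of 96 values were at the floor. The other 2 were single reads, of Prf1 in KEAP1-KO cells replicate 4 (2.29) and of Klrb1c in DKO cells replicate 4 (2.28). With no reads in 4 libraries, the counts allow up to 0.820 normalized counts per library in WT cells, 0.682 in KEAP1-KO cells and 0.732 in DKO cells (3 reads over the group, counting error only). No member was called between KEAP1-KO and WT cells or between DKO and KEAP1-KO cells by limma's test, and none had an unadjusted p under 0.05. These comparisons called 12.1% and 6.53% of all 37246 rows tested in either direction. Of the tested members, Cd4, Klrk1, Gzma and Gzmb had no read in cultured cells and Prf1 a single read. For these the result was fixed by the floor.

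In WT tumors all 8 of these genes were read in all 4 tumors. Their means lay between 0.67 (Ncr1) and 3.48 (Gzmb) above the floor, on 471 reads in all. The same genes had 26 reads in the KEAP1-KO tumors beside them, and 22 of the 32 values were at the floor. In Experiment B, the KEAP1-KO tumors had 46 reads and 19 of 32 values at the floor, while DKO tumors had 265 reads and 2 of 32 values at the floor. Of these members, 8 were read in every WT tumor, 0 and 2 in every KEAP1-KO tumor of Experiments A and B, and 6 in every DKO tumor. Leaving Cd8a out of these sums was decided after its values were seen.

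**Figure D1:**
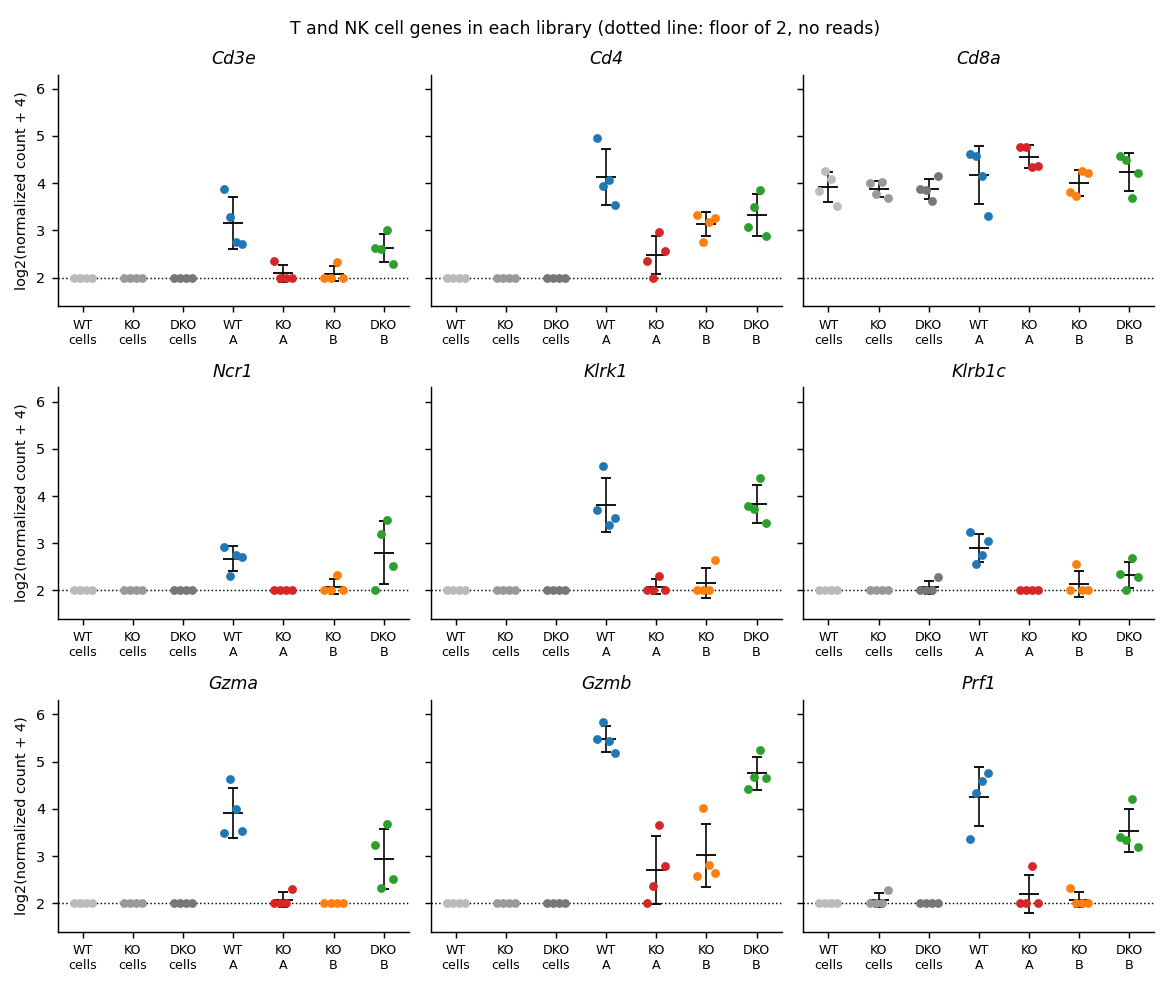
Values of the 9 members in each library, as log2(normalized count + 4) on the vertical axis, for cultured WT, KEAP1-KO (KO) and DKO cells and for tumors of Experiments A and B; points are libraries, black bars are means ± SD of 4, and the dotted line is the floor of 2. KEAP1-KO tumors sit at or near the floor for Cd3e, Ncr1, Klrk1, Klrb1c, Gzma and Prf1, Gzmb reaches 5.84 in a WT tumor, and Cd8a lies between 3.31 and 4.77 in all libraries.

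The first comparison asked how the members differed between KEAP1-KO and WT tumors of the same mice. The granule genes Gzmb, Prf1 and Gzma, the receptor gene Klrk1 and the coreceptor gene Cd4 were lower in the KEAP1-KO tumors, with differences from -2.78 to -1.65 on the log2 scale. Cd8a was not lower. Of the 6 members with enough counts to be tested, 5 were called lower, where 7.49% of 34215 rows were. For the same 5, all KEAP1-KO tumors lay below all WT tumors, as they did for 9.05% of the rows tested. A low gene can pass the count filter through the tumors where it is high, so the count among the members that passed is no support by itself. Limma was fitted to all 16 tumors, and p-values were adjusted over all rows by Benjamini-Hochberg.

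Gzmb, the granzyme that cleaves caspases and their substrates after aspartate, had the highest values of the set in WT tumors. Its 4 WT tumors were at 5.47, 5.84, 5.44 and 5.18, and their KEAP1-KO counterparts at 2, 2.37, 3.67 and 2.79. The groups did not overlap, and KEAP1-KO replicate 3 with 9 reads was the highest of its group. The mean fell by 2.78 (SE 0.37, adjusted p 6.82e-05), from 5.48 ± 0.27 to 2.71 ± 0.72 (SD, n = 4). In summed counts WT tumors held 12.1 times the Gzmb of KEAP1-KO tumors (95% counting interval 6.89 to 23.1, from 182 and 13 reads).

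Prf1, the pore-forming partner of the granzymes, was at 3.36, 4.34, 4.59 and 4.75 in WT tumors. In the KEAP1-KO tumors it was at 2, 2, 2.79 and 2, so that only replicate 3 had reads, 3 in number. The difference was -2.06 (SE 0.33, adjusted p 0.000377). Gzma, a granzyme of the tryptase kind, was at 3.48, 4.64, 3.99 and 3.54 against 2, 2, 2 and 2.31. A single read was left in the KEAP1-KO tumors against 52 in WT tumors, and the difference was -1.84 (SE 0.32, adjusted p 0.000914).

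Klrk1, the activating receptor for stress ligands on NK and CD8 T cells, was at 3.70, 4.64, 3.38 and 3.54 in WT tumors. Its KEAP1-KO values were 2, 2, 2.31 and 2, which is 1 read against 48. The difference was -1.74 (SE 0.30, adjusted p 0.000864). The ratio of summed counts was 41.4, but with 1 read in the denominator its counting interval ran from 7.09 to 1669. Gzma, also with 1 read, had a ratio of 44.9 (7.71 to 1806), and Prf1, with 3 reads, a ratio of 21.0 (6.91 to 104).

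Cd4 was at 4.95, 3.95, 4.07 and 3.54 in WT tumors and at 2.35, 2, 2.98 and 2.57 in KEAP1-KO tumors. WT replicate 1, with 30 of the 65 reads, stood highest, and the groups did not overlap. The difference was -1.65 (SE 0.32, adjusted p 0.00226), and the ratio of summed counts was 8.01 (3.68 to 20.7).

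Cd3e, Ncr1 and Klrb1c had too few counts for the test. Cd3e was at 3.89, 3.28, 2.75 and 2.71 in WT tumors, on 24 reads, and at 2.35, 2, 2 and 2 in KEAP1-KO tumors. Without the filter its difference was -1.07 (adjusted p 0.00840). Klrb1c was at 3.23, 2.56, 2.75 and 3.04 in WT tumors and at the floor in all 4 KEAP1-KO tumors. In counts, WT tumors held 4.60 times what 3 reads over the KEAP1-KO group would give. This ratio leaves out the counting error of the WT reads. The unfiltered difference of Klrb1c was -0.90 (adjusted p 0.00429). Ncr1, which marks NK cells and some innate lymphoid cells, was at 2.92, 2.31, 2.75 and 2.71 in WT tumors and also at the floor in all 4 KEAP1-KO tumors. The ratio made in the same way was 3.16. The 11 reads of Ncr1 did not carry the unfiltered difference of -0.67 past the threshold (adjusted p 0.124). For these 3 genes too all KEAP1-KO tumors lay below all WT tumors, as they did for 7.62% of the 43143 rows without the filter.

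Cd8a ran against the other members. Its WT tumors were at 4.62, 4.59, 4.15 and 3.31 and its KEAP1-KO tumors at 4.77, 4.76, 4.35 and 4.36, which overlap. The difference of 0.39 (SE 0.29) had an adjusted p of 0.453, with a 95% interval of -0.22 to 1.01 without the filter. Cultured cells, without host cells, also held Cd8a reads: 3.93 ± 0.32 in WT, 3.87 ± 0.17 in KEAP1-KO and 3.88 ± 0.21 in DKO cells. Cd8b1, which encodes the other chain of the CD8 coreceptor, had 2, 1 and 0 reads in the 3 cell groups, where Cd8a had 42, 47 and 45. In tumors Cd8b1 had 7, 2, 6 and 8 reads in the order WT, KEAP1-KO of Experiment A, KEAP1-KO of Experiment B and DKO. The source of the Cd8a reads was not tested.

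The second comparison asked what was found when Nrf2 was also deleted. In DKO tumors Gzmb, Klrk1 and Prf1 were higher than in KEAP1-KO tumors on the other flank, by 1.46 to 1.74 on the log2 scale. Gzma did not pass the threshold, and Cd4 and Cd8a lay close together in both groups. Of the 6 tested members, 3 were called higher, against 4.22% of all rows tested. All DKO tumors lay above all KEAP1-KO tumors for 4 of the 6, against 7.14% of the rows. As in Experiment A, low genes pass the filter through the tumors where they are high, so these counts are no support by themselves.

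Gzmb was at 2.58, 4.01, 2.82 and 2.65 in the KEAP1-KO tumors and at 4.43, 4.68, 5.25 and 4.66 in the DKO tumors. KEAP1-KO replicate 2, with 13 of the 20 reads of its group, still lay below the lowest DKO tumor. The difference was 1.74 (SE 0.37, adjusted p 0.00591), and the ratio of summed counts was 4.78 (2.94 to 8.15). Prf1 was at 2.32, 2, 2 and 2 against 3.40, 3.35, 4.21 and 3.19, a difference of 1.46 (SE 0.33, adjusted p 0.00893). Its reads numbered 1 in KEAP1-KO and 36 in DKO tumors.

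Klrk1 was at 2, 2, 2 and 2.65 in KEAP1-KO and at 3.79, 3.73, 4.39 and 3.44 in DKO tumors. The difference was 1.68 (SE 0.30, adjusted p 0.00178), on 2 reads against 47. Gzma had no read in any KEAP1-KO tumor of Experiment B and was at 3.24, 2.33, 3.69 and 2.51 in DKO tumors, on 19 reads, of which replicate 3 held 11. In counts, DKO tumors held 5.83 times what 3 reads over the KEAP1-KO group would give, and 3.44 times without DKO replicate 3. Both leave out the counting error of the DKO reads. The Gzma difference of 0.94 (SE 0.32) had an adjusted p of 0.0856. Without DKO replicate 2, which had a single read, it was 1.15 with an adjusted p of 0.0465, and without DKO replicate 3 it was 0.70 with an adjusted p of 0.242. It was called with all 28 libraries in the fit (adjusted p 0.0113) and with pseudocounts of 0.4 (3.16, adjusted p 0.0171) and 1 (2.12, adjusted p 0.0308).

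Cd4 was at 3.32, 2.76, 3.18 and 3.27 in KEAP1-KO and at 3.07, 3.49, 3.86 and 2.89 in DKO tumors, which overlap. The difference was 0.19 (SE 0.32, adjusted p 0.811), with a 95% interval of -0.48 to 0.86 without the filter. Cd8a was at 3.80, 3.73, 4.26 and 4.22 against 4.57, 4.49, 3.69 and 4.21, also overlapping (0.23, SE 0.29, adjusted p 0.732).

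Ncr1 was at 2, 2, 2.33 and 2 in KEAP1-KO tumors and at 2, 3.19, 3.50 and 2.51 in DKO tumors, with 1 and 16 reads. DKO replicate 1 had none of them. Cd3e was at 2, 2, 2.33 and 2 against 2.63, 2.60, 3.01 and 2.28, and Klrb1c at 2, 2.55, 2 and 2 against 2.35, 2, 2.68 and 2.28. These genes were too low to be tested, and without the filter their adjusted p-values were 0.126, 0.226 and 0.664. DKO replicate 3 was the highest DKO tumor for each of the 8 members other than Cd8a, and the lowest for Cd8a.

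**Figure D2:**
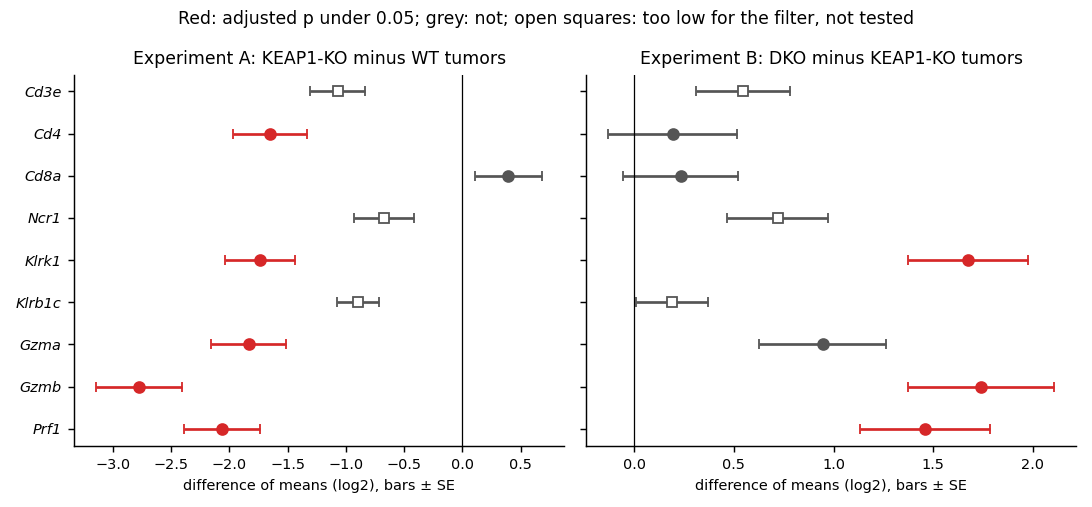
Differences of group means on the log2 scale (horizontal axis, ± SE) for the 9 members, KEAP1-KO minus WT tumors of Experiment A on the left and DKO minus KEAP1-KO tumors of Experiment B on the right. Red circles passed an adjusted p of 0.05, grey circles did not, and open squares are genes below the count filter; the 5 red genes on the left run from -2.78 to -1.65 and the 3 on the right from 1.46 to 1.74.

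KEAP1-KO tumors of the 2 experiments, on opposite flanks, were set side by side. No member was called by limma, and no tested member had an unadjusted p under 0.05, while 0.164% of all rows were called in either direction. Cd4 was 0.66 higher in Experiment B (SE 0.32, adjusted p 0.661), and its 19 reads stood against 7. Cd8a differed by -0.55, being lower in Experiment B (SE 0.29, adjusted p 0.685), and for this gene the 2 groups did not overlap. Of the 7 leukocyte genes described further on, 3 were called higher in Experiment B: Ptprc (0.81), Cd52 (1.30) and Lcp1 (0.82).

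DKO tumors were also compared with WT tumors, where genotype, experiment and flank differ together. No member was called lower by limma, against 5.99% of all rows, although 3 tested members had an unadjusted p under 0.05. Among members below the filter, DKO minus WT was -0.57 for Klrb1c (adjusted p 0.0702), -0.53 for Cd3e (0.220) and 0.13 for Ncr1 (0.853) without the filter. Klrk1 differed by 0.02 (SE 0.30, 95% interval -0.58 to 0.62 without the filter), and its reads were 47 in DKO and 48 in WT tumors. DKO minus WT was -0.97 for Gzma (SE 0.32, adjusted p 0.0675), -0.80 for Cd4 (SE 0.32, adjusted p 0.138), -0.73 for Gzmb (SE 0.37, adjusted p 0.251) and -0.72 for Prf1 (SE 0.33, adjusted p 0.195). Without WT replicate 1, Prf1 was called lower (-1.02, adjusted p 0.0480), and without DKO replicate 3, Gzma (-1.22, adjusted p 0.0244). With all 28 libraries in the fit Cd4 (adjusted p 0.0378) and Gzma (adjusted p 0.00822) were called lower.

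Whether the KEAP1-KO difference itself was of another size in Experiment A than in Experiment B was tested as a difference of differences. No member was called by limma, where 5.14% of all rows were, and 1 tested member had an unadjusted p under 0.05. This was Cd4, with a difference of differences of -1.46 (SE 0.46, adjusted p 0.0820). The values of Gzmb (-1.04, SE 0.52, adjusted p 0.310), Gzma (-0.89, SE 0.45, adjusted p 0.319) and Prf1 (-0.61, SE 0.46, adjusted p 0.545) were of the same sign, and that of Klrk1 was -0.06 (SE 0.42, adjusted p 0.965). With all 28 libraries in the fit, Cd4 was called (-1.46, adjusted p 0.0109), so whether its differences in the 2 experiments are shown to differ depends on the libraries fitted. In the same comparison 6 of the 7 leukocyte genes described further on were called, from -0.81 (Cd53) to -1.80 (Cd52), as were Klrb1b (-1.53), Crtam (-0.93), Tyrobp (-2.24) and Ctsc (-1.39), and their part in the members' values was not tested.

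Against their own cultured cells, WT and DKO tumors were higher in all tested members but Cd8a, and KEAP1-KO tumors in few. In WT tumors 5 members were called higher, from 1.81 (Klrk1) to 3.48 (Gzmb), where 24.7% of 37246 rows were. These members had no reads in WT or DKO cells and passed the filter through tumors. Neither this count nor that of DKO tumors is therefore support by itself. DKO tumors also had 5 called higher, from 0.94 (Gzma) to 2.75 (Gzmb), against 27.6% of rows. With median centring Gzma was not called there (0.58, adjusted p 0.0571), and with totals set equal leaving out the 20 highest rows Cd8a was (0.71, adjusted p 0.0255). The Experiment B KEAP1-KO tumors had Cd4 (1.13, SE 0.25, adjusted p 0.000715) and Gzmb (1.01, SE 0.30, adjusted p 0.00773) above KEAP1-KO cells, against 23.9% of rows. Gzmb was no longer called without replicate 2 of these tumors (0.68, adjusted p 0.0523) or with median centring (0.74, adjusted p 0.0524). In Experiment A KEAP1-KO tumors the member called on the deposited scale was Cd8a (0.69, SE 0.25, adjusted p 0.0317), also against 23.9% of rows, and this call was lost without replicate 2 or 4 of the KEAP1-KO cells (adjusted p 0.0695 and 0.0799) or replicate 1 or 2 of these tumors (0.0836 and 0.0815). It was also lost with quantile normalization (0.44, adjusted p 0.191), median centring (0.46, adjusted p 0.167) and reads drawn to 1 depth (0.68, adjusted p 0.0547). Gzmb was 0.71 above the cells there (SE 0.30, adjusted p 0.0611) and was called without tumor replicate 1 (0.94, adjusted p 0.0152) or 2 (0.82, adjusted p 0.0477) and without trend (adjusted p 0.0498). With smaller pseudocounts, which stretch the scale near the floor, Gzmb and Cd4 were both called: Gzmb at 2.38 with 0.4 and 1.59 with 1 (adjusted p 0.00426 and 0.0125), and Cd4 at 1.97 and 1.23 (adjusted p 0.00711 and 0.0244), against 0.48 as deposited (SE 0.25, adjusted p 0.144).

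Levels of different genes were compared per kilobase of exon, in normalized counts, using the union of exons in the GENCODE vM21 annotation. In WT tumors Gzmb came first with 28.8 per kilobase, followed by Gzma with 11.8 and Prf1 with 6.34. Cd8a (4.15) and Cd4 (3.65) followed, and Ncr1 (1.60), Klrk1 (1.53), Cd3e (1.33) and Klrb1c (1.21) lay close together. From Gzma down, the range over tumors of each gene overlapped that of the next. In DKO tumors the first 4 were Gzmb (16.4), Gzma (4.25), Cd8a (4.24) and Prf1 (3.14), and the ranges over tumors of the last 3 overlapped. In KEAP1-KO tumors Cd8a and Gzmb were first, with 5.46 and 2.22 in Experiment A, where their ranges over tumors overlapped, and 3.38 each in Experiment B. Exon length is not the length over which the authors' counts were made, so this order is approximate. Gm48719 and Gm48720 overlap Cd3e and Gm44511 overlaps Klrb1c in the annotation.

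Genes of the same pathways were counted from lists chosen with earlier results of these data known. Of 25 T cell genes, 20 had a row and 11 were tested. In Experiment A, where 13.1% of all rows were called in either direction, 6 were called lower and 1 higher, with a median difference of -1.04 against -0.03 over all rows. The summed counts of the 20 rows were 119 to 382 in WT and 48.9 to 132 in KEAP1-KO tumors, which overlap, and WT replicate 1 stood highest. In Experiment B they were 84.8 to 114 in KEAP1-KO and 94.7 to 206 in DKO tumors, and in WT cells 27.9 to 55.3. Those lower included Icos, a costimulatory receptor (-1.95, SE 0.26), Foxp3, the factor of regulatory T cells (-1.65, SE 0.35), the adaptor gene Lat (-1.53, SE 0.26), Cd6 (-1.16, SE 0.33) and Cd2 (-1.04, SE 0.31). Lat also differed by -1.47 between KEAP1-KO and WT cells in culture. Trdc was 1.10 higher in KEAP1-KO tumors (SE 0.35), and it had 29 reads in KEAP1-KO cells against 0 in WT and DKO cells. In Experiment B, where 8.86% of all rows were called in either direction, only Icos was called, 1.18 higher in DKO tumors (SE 0.26, adjusted p 0.00715).

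The other CD3 and T cell receptor genes were as low as Cd3e, Trac being read from a transcript. In WT tumors Cd3e, Cd3d, Cd3g, Trac and Trbc1 had 24, 16, 11, 16 and 22 reads, and 1, 1, 1, 1 and 4 in the KEAP1-KO tumors of the same mice. In DKO tumors they had 10, 8, 12, 12 and 9 reads. Over the KEAP1-KO tumors of Experiment B none of the 5 had more than 7 reads, and none had more than 1 in a group of cultured cells.

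Of 38 NK cell receptor and factor genes, 16 had a row and 13 were tested. The summed counts of the 16 rows were 892 to 1104 in WT and 570 to 918 in KEAP1-KO tumors of Experiment A, which overlap. Klra4 (0.38), Klra6 (0.34), Itga2 (0.41, a protein coding transcript) and Il18rap (0.68, a retained intron) were higher in these KEAP1-KO tumors, not called. In Experiment B the sums were 729 to 1006 in KEAP1-KO and 1022 to 1156 in DKO tumors. Of the 13, 5 were called lower in Experiment A, where 7.49% of all rows were. These were Il2rb, which encodes a receptor chain for interleukin 2 and interleukin 15 (-2.31, SE 0.49), Tyrobp, the DAP12 adaptor (-2.13, SE 0.42, a protein coding transcript), Klrb1b (-1.67, SE 0.23), Sh2d1b1 (-1.62, SE 0.25) and Crtam (-1.29, SE 0.16). Crtam also differed by -1.96 between KEAP1-KO and WT cells, and Tyrobp is carried by myeloid cells too. In Experiment B 1 of the 13 was called, which is no more than the 8.86% of all rows called in either direction. This was Klra2, 1.34 higher in DKO tumors (SE 0.25), and it was likewise 0.91 higher in DKO than in KEAP1-KO cells. Several genes of this list were therefore read in the cancer cells themselves. Klrc1, which was added after its values were seen and had no read in cultured cells, had 22 reads in WT, 0 and 1 in KEAP1-KO and 13 in DKO tumors.

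Of 20 further killing genes, 15 had a row and all 15 were tested. In Experiment A, where 13.1% of all rows were called in either direction, 8 were called lower and 1 higher, with a median of -1.37. Slamf7, an activating receptor of NK cells, fell by 2.62 (SE 0.31), and Ctsc, the protease that activates granzymes, fell by 2.19 (SE 0.16, a protein coding transcript). Unc13d, for granule docking (-1.80, SE 0.40, a transcript subject to decay), and Rab27a, for granule transport (-1.79, SE 0.35, a retained intron), were lower. Gzmd (-1.79, SE 0.41), Srgn (-1.79, SE 0.25), the core of the granule proteoglycan serglycin, Gzmc (-1.42, SE 0.39) and the death ligand gene Tnfsf10 (-1.37, SE 0.26) were also lower. Stx11, a protein coding transcript, was 0.78 higher (SE 0.21), as it was in KEAP1-KO cells, by 1.71. In Experiment B, where 4.22% of all rows were called higher, 4 of the list were: Slamf7 (1.74, SE 0.31), Tnfsf10 (1.16, SE 0.26), Srgn (1.09, SE 0.25) and Ctsc (0.79, SE 0.16). Srgn, Ctsc and Slamf7 are also used by myeloid cells.

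The granzyme genes next to Gzmb were read in the tumors as well. Gzmc, Gzmd, Gzme, Gzmf and Gzmg had 53, 63, 20, 50 and 52 reads in WT tumors and 6, 4, 2, 5 and 5 in the KEAP1-KO tumors of the same mice. Experiment B had 13, 10, 3, 7 and 11 reads in KEAP1-KO tumors, and DKO tumors 48, 43, 23, 44 and 25. They are close copies of each other, so the split of reads among them is uncertain.

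On the side of the cancer cells, genes that NK and T cells meet were followed too. For these and the granzyme inhibitors below, 13.1% of all rows were called in either direction in Experiment A and 8.86% in Experiment B. Of 9 genes for NKG2D ligands 3 were tested, and Raet1d (0.50, SE 0.08) and Ulbp1 (1.18, SE 0.31, a processed transcript) were higher in KEAP1-KO than in WT tumors. Ulbp1 differed by 0.06 between DKO and KEAP1-KO tumors (adjusted p 0.945) and by -0.65 between KEAP1-KO and WT cells (adjusted p 0.257). In DKO tumors Raet1d was below KEAP1-KO tumors (-0.33, SE 0.08, adjusted p 0.0198). In culture it was 0.42 higher in KEAP1-KO than in WT cells, and DKO minus KEAP1-KO cells was -0.53.

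Serpins of the B9 and B6 branches inhibit granzymes and related proteases. Of 9 such genes 7 were tested in the tumors, and 5 were higher in KEAP1-KO than in WT tumors, with a median of 1.43 over the 7. Serpinb9e was at 6.54 against 2.14 (4.41, SE 0.41), and Serpinb9b, read from a processed transcript, at 9.17 against 6.26 (2.91, SE 0.17). Serpinb9f (1.59, SE 0.31), Serpinb9g (1.43, SE 0.29) and Serpinb9 (0.56, SE 0.17), the classical inhibitor of granzyme B, followed. Serpinb6b, a transcript subject to decay, was lower (-1.47, SE 0.30), and had 0, 2 and 5 reads in WT, KEAP1-KO and DKO cells.

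In Experiment B, Serpinb9e (-3.87, SE 0.41, adjusted p 1.29e-05), Serpinb9b (-1.36, SE 0.17) and Serpinb6a (-0.62, SE 0.12, a processed transcript) were below KEAP1-KO tumors in DKO tumors, while Serpinb6b was 1.11 higher (SE 0.30). In cultured cells 8 of the list were tested. KEAP1-KO cells were higher than WT cells in 6, by up to 4.31 (Serpinb9b), and DKO cells lower than KEAP1-KO cells in 6. Over all rows 12.1% and 6.53% were called in either direction in these comparisons. The Serpinb9 genes are close copies of each other, and reads may be split among them.

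**Figure D3:**
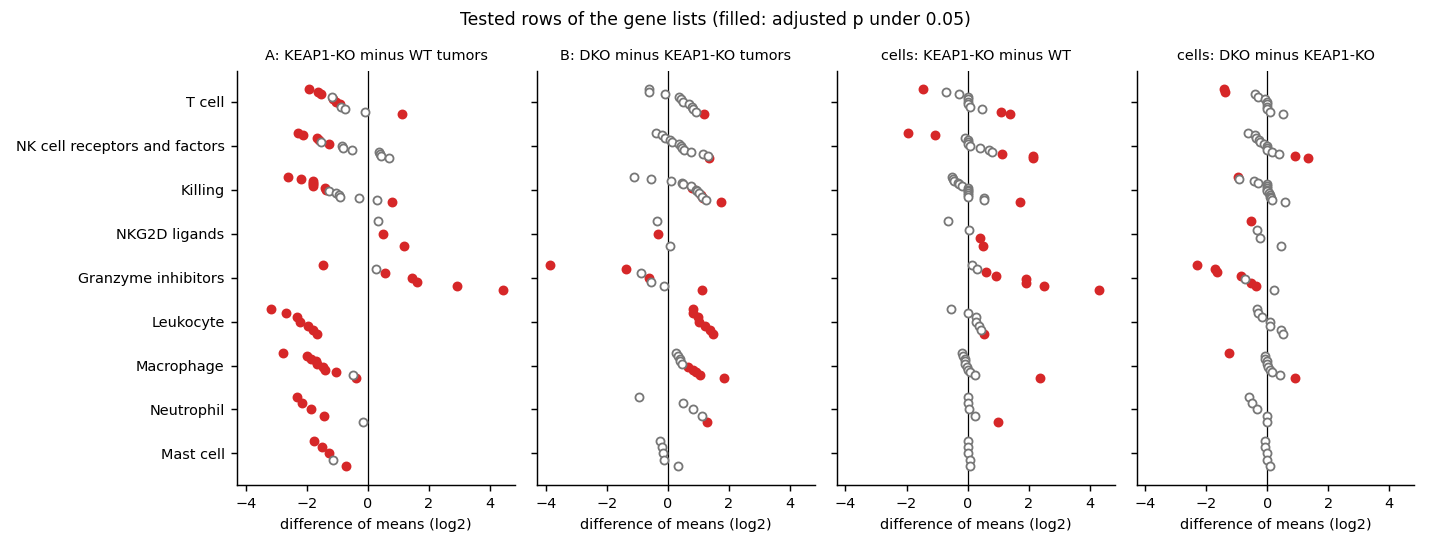
Differences of group means on the log2 scale (horizontal axis) for each tested row of 9 gene lists, in the tumors of Experiments A and B and in cultured cells; filled red points passed an adjusted p of 0.05. The 7 leukocyte genes lie between -3.18 and -1.69 in Experiment A and between 0.83 and 1.49 in Experiment B, while of 7 granzyme inhibitors 5 are higher and 1 lower in Experiment A, and 3 lower and 1 higher in Experiment B.

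Other leukocyte genes moved with the members. Here and for the cell type lists below, 13.1% of all rows were called in either direction in Experiment A and 8.86% in Experiment B. All 7 leukocyte genes (Ptprc, Cd53, Cd52, Coro1a, Laptm5, Lcp1 and Cd48) were called lower in Experiment A and higher in Experiment B. Ptprc, which encodes CD45 and was read from a retained intron, differed by -2.32 (SE 0.14) and 1.02 (SE 0.14). Their summed counts ran from 2860 to 3569 in WT, from 652 to 733 and from 1065 to 1403 in KEAP1-KO of Experiments A and B, and from 1969 to 3209 in DKO tumors, against 2.28 to 13.7 in cultured cells.

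Among macrophage genes 9 of 10 were lower in Experiment A, led by Fcgr1 (-2.78), Csf1r (-2.01), Adgre1 (-1.87) and Ms4a7 (-1.72) and with Mrc1 (-1.06) and Cd68 (-0.38) least. In Experiment B 5 were higher: Fcgr1, Cd14, Adgre1, Csf1r and Cd68. Their summed counts were 5636 to 7629, 2782 to 3307, 4243 to 4819 and 5438 to 6977 in the same order of groups. Among neutrophil genes 4 of 5 tested were lower in Experiment A (Csf3r, S100a9, Retnlg and Cxcr2) and Csf3r was higher in Experiment B. Among mast cell genes 4 of 5 tested were lower in Experiment A (Cpa3, Cma1, Tpsb2 and Kit), while in Experiment B the 5 had adjusted p-values of at least 0.733. Their summed counts were 146 to 357, 57.4 to 130, 97.8 to 186 and 85.5 to 160.

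Dendritic cell genes had Ccr7 and Itgax lower among 5 tested in Experiment A, and Ccr7 higher and Flt3 lower in Experiment B. Of the innate lymphoid cell genes, Il7r was lower in Experiment A and higher in Experiment B, Rora was lower in Experiment A, and Gata3 went the opposite way in both and was also higher in KEAP1-KO than in WT cells. Of 3 B cell genes tested only Pax5 was called, 2.36 higher in KEAP1-KO tumors and 3.32 higher in KEAP1-KO cells. In these lists Coro1a, Cd14, Ms4a7, Mrc1, Kit and Itgax were read from retained introns, Fcgr1 from a transcript subject to decay, Lcp1, Cd68, Csf3r and Flt3 from processed transcripts, and Laptm5 and Csf1r from a protein coding transcript. The part of other leukocytes in the values of the granule genes was not tested.

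To see how the members stood beside leukocyte RNA as a whole, the summed counts of the 8 members other than Cd8a were set against the summed leukocyte genes of the same tumor. The members summed to 87.4 to 131 normalized counts in WT tumors, 1.16 to 16.4 and 8.98 to 16.8 in the KEAP1-KO tumors of Experiments A and B, and 41.8 to 98.8 in DKO tumors. For every 1000 leukocyte counts there were 30.6 to 36.8 member counts in WT tumors and 16.8 to 30.8 in DKO tumors. KEAP1-KO tumors had 1.77, 3.24, 7.97 and 23.7 in Experiment A and 7.25 to 12.7 in Experiment B. The tumor at 23.7 was KEAP1-KO replicate 3 of Experiment A, whose 3 companions lay below all WT and DKO tumors. Member and leukocyte counts come from the same library, and no test was made on this ratio.

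**Figure D4:**
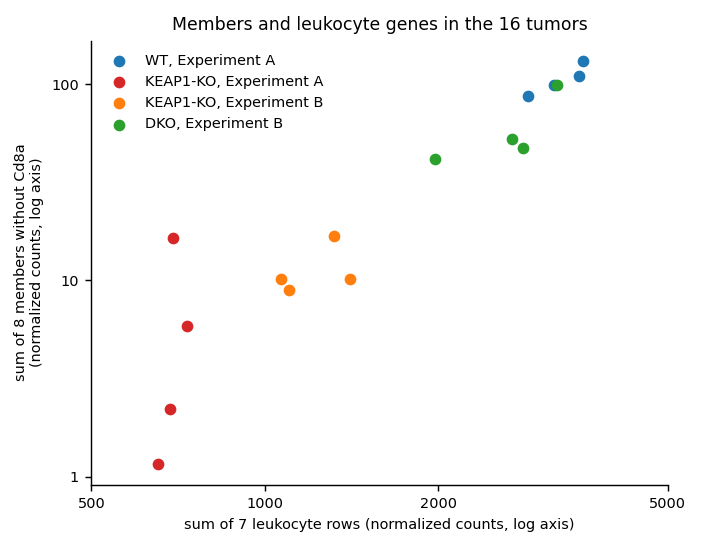
Summed normalized counts of the 8 members other than Cd8a (vertical axis, log scale) against those of 7 leukocyte genes (horizontal axis, log scale) in the 16 tumors, coloured by group. KEAP1-KO tumors lie at the lower left with member sums of at most 16.8, and WT and DKO tumors at the upper right with at least 41.8.

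The deviations of the members from their group means were compared over the 16 tumors. Among the 8 members other than Cd8a, 23 of 28 pairs had a positive Pearson r, with a median of 0.25. Over all 9 it was highest for Klrk1 with Gzma (0.67) and Cd3e with Cd4 (0.67) and lowest for Cd8a with Prf1 (-0.69). Points from the same tumor share a library and its depth, and at such counts the values are given as a description. The rows with a symbol that were most alike to Gzmb in this way were Slc35e2 (0.92), Ssr2 (0.89) and Fadd (0.88), and for Prf1 Psmg3 (0.88), Uqcc2 (0.86) and Gzmf (0.85). For Cd4 they were Rcn3 (0.93), Gm38211 (0.88) and Tgfbr2 (0.87), and for Cd8a Polr1has (0.86), Gm43498 (0.84) and Itfg1 (0.82). Psmg3 and Itfg1 were read from retained introns, and Uqcc2 and Polr1has from processed transcripts.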

How the data were processed

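RNA of 16 tumors and 12 libraries of cultured cells was used, with groups and replicate numbers from the sample titles. The authors removed ribosomal RNA, made strand-specific libraries, counted paired-end reads on GENCODE transcripts of the mouse through Salmon, and ran iDEP, as the study's methods state. The deposited table holds log2 values that follow log2(normalized count + 4), which was inferred here: each library has its minimum at exactly 2, and after reversal 100% of low values were whole multiples of 1 read, to within 0.05. The methods speak of TPM. Of the rows, 34021 are named by a transcript and 9122 by a gene; how transcripts were joined into a gene row is not given in the sources used here. The row of a gene can be 1 minor transcript, which is stated beside the gene or its list. No other column of values was present (0).

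Differences were tested on the deposited log2 values with limma 3.58.1 in R 4.3.3 (lmFit, eBayes with trend), Benjamini-Hochberg adjustment over all rows tested and a threshold of 0.05, without a replicate block. All 16 tumors entered 1 fit for tumor comparisons, and all 28 libraries for those with cells. Rows needed 5 normalized counts in 4 libraries of the fit, which left 34215 and 37246 rows. The procedure was tested on simulated data. Values without the filter are given for members that it removed. Counting intervals (95%, exact) and floors of 3 reads cover counting error only, and PCR copies were not told apart. Ratios against a floor of 3 reads leave out the counting error of the group with reads.

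The members and all gene lists were chosen with earlier results of these data known. Named are the members, the listed genes called in Experiment A or B (for lists with over 8 called, the 4 lowest and 2 highest differences; for the killing list all are given), Ptprc, Keap1, Nqo1 and the 3 rows most alike to a member with a mean of at least 3. A listed gene that the rule names is not reported here. Klra4, Klra6, Itga2, Il18rap, Klrc1, Cd8b1, the CD3 and receptor genes and the granzyme neighbours were added after their values were seen. Alternatives were other pseudocounts (0.4 and 1), no filter or a mean of 25, median centring, quantile normalization, totals set equal leaving out the 20 highest rows, a fit without trend, other sets of libraries in the fit, a block for the replicate number, reads drawn to 1 depth, an adjusted p of 0.01 and leaving out each library.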

Additional observations from a re-analysis of the deposited data

Results flagged for a closer look

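Within groups of 4 libraries, 12 of 38 pairs of member and group with at least 2 different values held a library that stood far from the other 3. In 11 of them the other 3 libraries were at the floor and the library held 1 to 3 reads. With 3 tied values any read sets a library apart, so the rate of about 1 in 20 that chance gives for untied values cannot be set against these. In KEAP1-KO tumors of Experiment A these were Cd3e in replicate 1 (2.35), Klrk1 in replicate 3 (2.31), Gzma in replicate 4 (2.31) and Prf1 in replicate 3 (2.79). In KEAP1-KO tumors of Experiment B they were Cd3e (2.33) and Ncr1 (2.33) in replicate 3, Klrk1 in replicate 4 (2.65), Klrb1c in replicate 2 (2.55) and Prf1 in replicate 1 (2.32). In cultured cells they were Klrb1c in DKO replicate 4 (2.28) and Prf1 in KEAP1-KO replicate 4 (2.29). The remaining one was Gzmb in KEAP1-KO replicate 2 of Experiment B, at 4.01 with 13 reads, while the others lay between 2.58 and 2.82.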

How the results depend on the processing

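The 5 members called lower in Experiment A kept this call in each alternative that tested them, and Gzmb, Klrk1 and Prf1 in Experiment B likewise. Without each library in turn, the Gzmb difference ran from -3.10 to -2.54 in Experiment A and from 1.58 to 2.07 in Experiment B. Gzma in Experiment B (0.94) was called with a pseudocount of 0.4 (3.16), of 1 (2.12), with all 28 libraries (0.94) and without DKO replicate 2 (1.15). At a mean of 25 counts no member row was left, so the members called were 0 in both experiments and 0 higher in each of the 4 comparisons with cells, while 9365 rows differed between WT tumors and cells, 9624 for KEAP1-KO of Experiment B and 10073 for DKO. With a threshold of 0.01 the rows called fell to 2555 in Experiment A, 1668 in Experiment B, 0 between the KEAP1-KO groups, 1878 for DKO against WT tumors, 727 for the size of the effect, and 2782 and 1480 in cells. Between the KEAP1-KO groups 56 rows were called, 20 with no filter, 8 with no trend, 6 with only these groups, 124 with all 28 libraries and 0 to 43 without a library. DKO against WT tumors called 2 members lower with all 28 libraries (Cd4 and Gzma) and 0 to 1 without a library. For the size of the effect no trend gave 1074 rows, and all 28 libraries 1 member (Cd4). Members above cells were 8 for WT tumors with no filter. For KEAP1-KO, Experiment A, they were 3 with either other pseudocount, 2 with no trend, 0 with quantile normalization, median centring, 1 depth or a threshold of 0.01, and 0 to 1 without a library. For KEAP1-KO, Experiment B, they were 1 with median centring, 0 with only these groups and 1 to 2 without a library, and in DKO tumors 3 with only these groups, while Gzma lost its call with median centring and Cd8a gained one when rescaled without the 20 highest rows. The cause was not tested beyond the row filter. Same-numbered tumors did not deviate together (correlations -0.03 to 0.03, none best with its own number). Tumors of the same mouse need not deviate together, so this cannot decide whether equal numbers mark the same mouse. With the replicate block 5 members were called lower in Experiment A and 3 higher in Experiment B. At these depths the first read lifts a member by about 0.3 above the floor on the log2 scale, and Cd3e, Ncr1 and Klrb1c are limited by counts of at most 24 reads a group.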
